A study of Mus musculus with 12 samples.

Results

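The stathmin family was examined across 12 arrays of the mouse myoblast line C2C12. Its 4 genes, Stmn1, Stmn2, Stmn3 and Stmn4, were taken as the members, with every probe that the deposited table assigns to one of these symbols. This gave 4 of 27306 gene symbols on the array and 8 of 56605 probes, 3 for Stmn1, 2 each for Stmn2 and Stmn3, and 1 for Stmn4. The family was chosen by its measured values, since the low Stmn4 signal in siBach1 cells at day 0 brought it into view. The Stmn4 levels at day 0, and each difference that uses them, are therefore a description without a test. The other 3 genes entered through their family name, although earlier results of these data were known when they did.

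C2C12 is an established line of muscle precursor cells from C3H mice that fuses into myotubes in low serum. Cells were transfected with siControl, a negative control RNA, or with siBach1 against Bach1, a transcriptional repressor that binds haem. RNA was taken at day 0, without induced differentiation, or at day 2 after the change to medium with horse serum, which was made at confluence, a day after transfection. The 4 conditions, siControl day 0, siBach1 day 0, siControl day 2 and siBach1 day 2, had 3 replicates each. All groups are the same line and all were transfected, the methods name siBach1-2 as the RNA used, and untransfected cells or another RNA against Bach1 were not analysed here. The labels do not say whether replicates were separate cultures, so the p-values measure only the spread between these samples, which may be technical.

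Stathmins are small phosphoproteins that bind tubulin dimers and favour the shortening of microtubules, and kinases switch this activity off. Stmn1, also called oncoprotein 18, is the cytosolic member of dividing cells, where it is switched off by phosphorylation so that the spindle can form. Stmn2 (SCG10), Stmn3 (SCLIP) and Stmn4 (RB3) carry an added stretch that anchors them to membranes and are best known from neurons, in which they act in the growth of axons and dendrites. Differentiating myoblasts leave the cell cycle and rebuild their microtubules into long parallel arrays.

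Each value below is the log2 of the scanner's processed signal minus the array's own 75th percentile, called the log2 level, and a difference of 1 on this scale is a change by a factor of 2. Levels of different probes are not compared as amounts of RNA, because probes differ in how brightly they bind. Between 47.6% and 58.9% of the probes on an array were well above background by the scanner's rule, and this number of arrays limits the precision. Replicates 1 and 2 of all conditions were on slide 1 and replicate 3 on slide 2, so every comparison could also be made within a slide. Bach1 itself differed by -1.77 at day 0 and by -1.97 at day 2 between siBach1 and siControl cells (SE 0.11 each, adjusted p = 1.2e-05 and 1.4e-05). Hmox1, the haem oxygenase gene that Bach1 represses, rose by 3.30 and 3.12 (SE 0.14 each, adjusted p = 1.4e-06 and 2.8e-06). Myog, a transcription factor of muscle differentiation, rose from day 0 to day 2, by 4.85 with siControl and by 3.77 with siBach1 (SE 0.21 each, adjusted p = 7.4e-08 and 3.6e-07). At day 2 it was lower in siBach1 than in siControl cells, with a difference of -0.98 (SE 0.21, adjusted p = 0.016).

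Of the 8 probes, 6 passed the filter, which asked for a signal well above background on every array (3 of 3) of 1 condition or more. The probes A_51_P495641 and A_55_P2043862 of Stmn1, A_66_P139166 of Stmn2 and A_55_P2045642 of Stmn4 passed the background rule on each of the 12 arrays. The Stmn2 probe A_55_P2935146 passed only through siControl day 0, and the Stmn3 probe A_55_P2851414 only through both day 2 conditions. The remaining probes were not tested: A_55_P2721279 of Stmn1 was well above background on 0 of 12 arrays, and A_51_P140690 of Stmn3 on 1 array each of siControl day 0 and siControl day 2. The log2 levels of the former lay between -7.35 and -5.76 and those of the latter between -5.58 and -4.48, with overlapping ranges in all conditions.

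**Figure D1:**
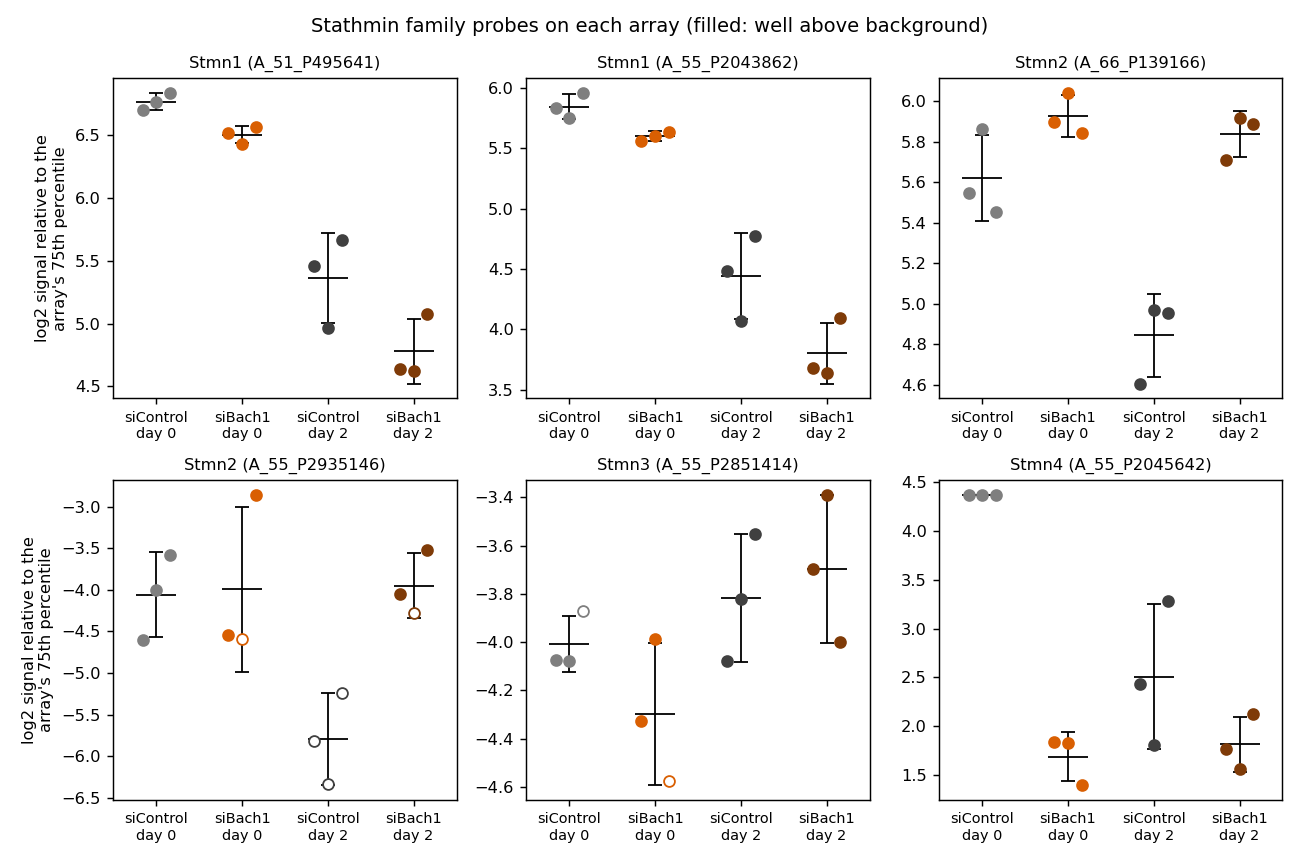
The log2 signal of the 6 tested probes relative to the 75th percentile of each array, with 1 point per array (replicates 1, 2 and 3 from left to right), the mean as a horizontal bar and the SD as a whisker (n = 3), open points where the probe was not well above background, and a separate vertical axis for each panel. Stmn1 is highest at day 0, Stmn2 is lowest in siControl day 2, and Stmn4 is highest on the siControl day 0 arrays, at 4.36 to 4.37, and at most 3.28 on the others.

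Stmn4, the RB3 gene, had its highest level in siControl cells at day 0 and was lower in the other conditions. It stood at 4.36, 4.37 and 4.36 on the siControl day 0 arrays and at 1.84, 1.83 and 1.40 on the siBach1 day 0 arrays. The 2 conditions did not overlap, and their means, 4.36 ± 0.0031 and 1.69 ± 0.25 (SD, n = 3), differed by -2.67, a level 6.38-fold lower in siBach1 cells. This is the value that chose the gene, so it was not tested. In siControl cells at day 2, Stmn4 stood at 2.43, 1.81 and 3.28, and the mean of 2.51 ± 0.74 was 3.62-fold below that at day 0, a difference of -1.86. In siBach1 cells at day 2 it stood at 1.77, 1.57 and 2.12, with a mean of 1.82 ± 0.28, and its difference from day 0 in these cells was 0.13. The siBach1 day 0, siBach1 day 2 and siControl day 2 arrays overlapped in pairs, and only siControl day 0 stood apart. RNA of whole cultures was measured, so fewer cells that express a gene and less of its RNA per cell cannot be told apart here or below.

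The silencing effect on Stmn4 at day 2 is a difference between day 2 arrays only, and it was tested. Its interval and p-value came from the fit of all conditions, so they also drew on the day 0 arrays that chose the gene. Leaving out single day 0 arrays did not change the difference and gave adjusted p-values of 0.17 to 0.22. The test is therefore not independent of that choice. The difference was -0.69 (95% interval -1.37 to -0.01, adjusted p = 0.18, or 0.12 to 0.44 over the alternatives), the ranges of the 2 conditions overlapped, and the call was not made. It was -0.45 on slide 1 and -1.16 on slide 2. The siControl day 2 arrays set much of its size: without replicate 2 of that condition it was -1.04 (adjusted p = 0.034), and without replicate 3 it was -0.30 (adjusted p = 0.44). Subtracting the silencing effect at day 0 from that at day 2 gave 1.99, on slide 1 alone 2.08 and on slide 2 alone 1.80, again as a description.

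Stmn1, the gene of the dividing-cell member, fell from day 0 to day 2 in both siControl and siBach1 cells. On probe A_51_P495641 it stood at 6.70, 6.77 and 6.84 in siControl day 0, at 6.52, 6.43 and 6.57 in siBach1 day 0, at 5.46, 4.96 and 5.67 in siControl day 2, and at 4.64, 4.62 and 5.07 in siBach1 day 2. All day 2 arrays lay below all day 0 arrays. The fall was -1.41 in siControl cells (SE 0.17, 95% interval -1.79 to -1.02, adjusted p = 6.3e-05), a level 2.65-fold lower at day 2. In siBach1 cells it was -1.73 (95% interval -2.12 to -1.34, adjusted p = 1.4e-05), 3.31-fold lower. Probe A_55_P2043862 gave -1.40 and -1.80 for the same comparisons (SE 0.17 each, adjusted p = 5.9e-05 and 9.8e-06). On slide 1 the fall on probe A_51_P495641 was -1.52 in siControl and -1.85 in siBach1 cells, and on slide 2 it was -1.17 and -1.5. The calls on both probes were made under each of the 12 alternatives and with each of the 12 arrays left out.

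The effect of silencing on Stmn1 at day 2 lay at the threshold. On probe A_51_P495641 the siBach1 level was lower by -0.59 (SE 0.17, 95% interval -0.97 to -0.20), 1.5-fold, with an adjusted p of 0.056. With the replicate number as a block it was 0.017, and with the slide as a block 0.015. Probe A_55_P2043862 stood at 4.48, 4.07 and 4.77 in siControl and at 3.68, 3.64 and 4.09 in siBach1 cells at day 2. The difference of -0.64 (95% interval -1.02 to -0.25) passed at an adjusted p of 0.039, or 0.0095 with the replicate block. The ranges overlapped on both probes, by siControl replicate 2 and siBach1 replicate 3, while within each replicate number the siBach1 array was lower, by -0.82, -0.34 and -0.59 on A_51_P495641 and by -0.80, -0.43 and -0.68 on A_55_P2043862. Within slides the difference on A_51_P495641 was -0.58 on slide 1 and -0.59 on slide 2.

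In the fit without a block, single arrays decided the side of the threshold. Arrays were not left out with the replicate block, under which both probes were called. Without siControl day 2 replicate 2, A_51_P495641 gave -0.78 (adjusted p = 0.011), and without siBach1 day 2 replicate 3 it gave -0.73 (adjusted p = 0.036). The call on A_55_P2043862 was kept without those 2 arrays (-0.82 and -0.78, adjusted p = 0.011 and 0.029) and without siBach1 day 0 replicate 3 (adjusted p = 0.047), and was lost without any of the other 9. Of these 9, leaving out siControl day 2 replicate 1 or 3 gave -0.62 and -0.47 (adjusted p = 0.11 each), leaving out siBach1 day 2 replicate 1 or 2 gave -0.58 and -0.55 (adjusted p = 0.13 and 0.12), and the 5 day 0 arrays gave adjusted p-values of 0.051 to 0.059. The call was also lost under quantile normalization (-0.56, adjusted p = 0.054), without a filter on dim probes and on the 6 arrays of the comparison alone (adjusted p = 0.13 each), and the methods' t-test did not make it before or after Benjamini-Hochberg adjustment.

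At day 0 the silencing effect on Stmn1 was -0.26 on A_51_P495641 (95% interval -0.65 to 0.13, adjusted p = 0.35) and -0.24 on A_55_P2043862 (95% interval -0.63 to 0.14, adjusted p = 0.38). The siBach1 arrays lay below the siControl arrays on both probes, but no call was made. The silencing effects at the 2 days did not differ by this test: the difference was -0.32 (95% interval -0.87 to 0.23, adjusted p = 0.51) and -0.39 (95% interval -0.94 to 0.15, adjusted p = 0.40).

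Stmn2, the SCG10 gene, moved in the opposite direction to Stmn1 with silencing: at day 2 it was higher in siBach1 than in siControl cells. On probe A_66_P139166 it stood at 5.55, 5.86 and 5.45 in siControl day 0 and at 5.90, 6.04 and 5.84 in siBach1 day 0. At day 2 it stood at 4.61, 4.97 and 4.96 in siControl and at 5.71, 5.92 and 5.89 in siBach1 cells. Only the siControl day 2 arrays were low, and they overlapped with no other condition. The day 2 difference was 0.99 (SE 0.14, 95% interval 0.69 to 1.29, adjusted p = 0.0018), a level 1.99-fold higher in siBach1 cells. It was 1.02 on slide 1 and 0.93 on slide 2, and 0.87 to 1.06 with each array left out. At day 0 the difference was 0.31 (95% interval 0.01 to 0.61, adjusted p = 0.15), with overlapping ranges.

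Over the 2 days of differentiation Stmn2 fell in siControl cells by 0.78 (SE 0.14, 95% interval -1.08 to -0.48, adjusted p = 0.00064), a level 1.71-fold lower. In siBach1 cells the difference was -0.09 (95% interval -0.39 to 0.21, adjusted p = 0.61). The test of the difference between these, which is also the silencing effect at day 2 minus that at day 0, gave 0.69 (SE 0.19, 95% interval 0.26 to 1.11, adjusted p = 0.07). With the replicate block the adjusted p was 0.021, and with the slide as a block 0.045. The same quantity was 0.76 on slide 1 and 0.55 on slide 2.

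The Stmn2 probe A_55_P2935146 was dim. It was well above background on 3 siControl day 0 arrays, on 2 arrays each of siBach1 day 0 and siBach1 day 2, and on 0 siControl day 2 arrays, where it stood at -5.81, -6.34 and -5.23. In siBach1 cells at day 2 it stood at -4.05, -4.27 and -3.52. The fitted silencing difference at day 2 was 1.85 (adjusted p = 0.032), and it uses siControl day 2 signals that were not well above background. Its p-value came from the fit of all conditions, so it also drew on the siControl day 0 arrays that carried the probe through the filter. The test is therefore not independent of the filter. Against the lowest signal that counted as well above background, the siBach1 day 2 mean was 1.48-fold higher. This is no strict minimum, since siBach1 day 2 replicate 2 was not well above background itself. Against the same limit the siControl day 0 level was at least 1.38-fold higher than that of siControl day 2. The comparison of siControl day 0 with siControl day 2 carries no test, since the probe passed the filter only through siControl day 0, where it was high. Neither do the probe's other differences that use that condition. As on A_66_P139166, the siControl day 2 mean was the lowest, while the siBach1 conditions stood in the other order and overlapped. The silencing call was lost without any of siBach1 day 2 replicates 1, 2 or 3 (adjusted p = 0.082, 0.056 and 0.099) or siControl day 2 replicates 1 or 2 (0.084 and 0.094), for fitted differences of 1.58 to 2.01. It was also lost without a filter on dim probes (adjusted p = 0.097), in the methods' test after adjustment (0.09) and after normexp background correction, which compresses dim signals. There the silencing difference was 0.19 (adjusted p = 0.59), a smaller rise than the 1.48-fold above, and the differentiation difference in siControl cells was -0.10.

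Stmn3, the SCLIP gene, was near background. Probe A_55_P2851414 stood between -4.58 and -3.39 over the 12 arrays and was not well above background on replicate 3 of siControl day 0 and of siBach1 day 0. In siBach1 cells it stood at -4.33, -3.99 and -4.58 at day 0 and at -3.7, -3.39 and -4.0 at day 2. The ranges overlapped, and the difference between days was 0.60 (SE 0.20), or 0.45 to 0.76 with single arrays left out. In siControl cells it was 0.19 (SE 0.20). The probe passed the filter only through the day 2 conditions, so these differences are a description without a test. The silencing effects were -0.29 at day 0 (95% interval -0.72 to 0.14, adjusted p = 0.35) and 0.12 at day 2 (95% interval -0.31 to 0.56, adjusted p = 0.76), and the difference between them was 0.41.

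**Figure D2:**
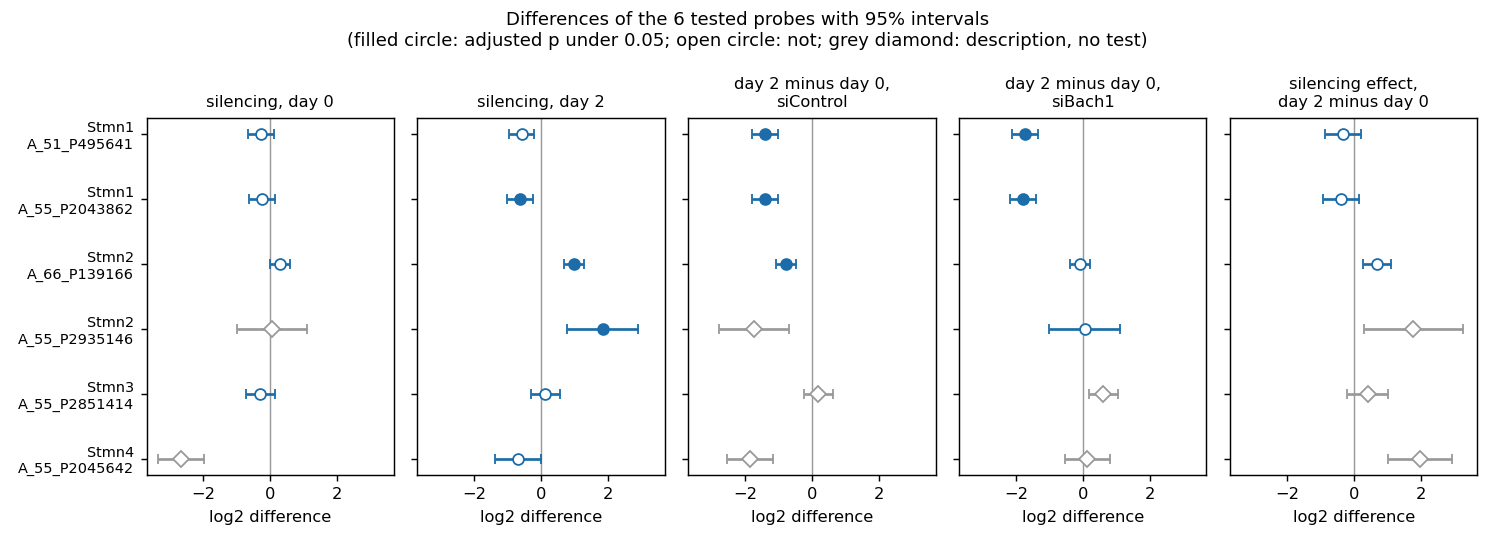
Differences in log2 level of the 6 tested probes with 95% intervals in the 5 comparisons (filled circles, adjusted p under 0.05; open circles, not under it; grey diamonds, values of Stmn4 and of the dim Stmn2 and Stmn3 probes that are a description with no test). At day 2, silencing moved Stmn1 to the left (-0.59 and -0.64) and Stmn2 to the right (0.99), and with differentiation the Stmn1 probes moved left in both siControl and siBach1 cells.

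Set against all probes tested, the members moved as follows, with Stmn4 counted only where it was tested and the dim Stmn2 and Stmn3 probes left out where a condition of the comparison had carried them through the filter. For silencing at day 0, 0 of 4 probes were called, 1 had an unadjusted p under 0.05, and the methods' t-test gave 2 before and 0 after Benjamini-Hochberg adjustment. Over all tested probes 8.8% were called higher and 8.32% lower. For silencing at day 2, 2 of 6 probes (both of Stmn2) were called higher and 1 (of Stmn1) lower, against 5.75% and 6.26% of all tested probes. The dim A_55_P2935146 is among the 2, with siControl day 2 signals not well above background, and its call was lost under normexp. Of the 6, 5 had an unadjusted p under 0.05 and 4 were called with the replicate block. The methods' t-test gave 2 of the 6 before and 0 after Benjamini-Hochberg adjustment. With differentiation in siControl cells, 3 of 3 probes, those of Stmn1 and Stmn2, were called lower and 0 higher, where 28.7% of all probes were lower and 24.6% higher. In siBach1 cells, 2 of 4 were lower, both of Stmn1, and 0 higher, against 32.3% and 23.8%. For the difference between the silencing effects 0 of 3 were called, 1 had an unadjusted p under 0.05, 1 was called with the replicate block, the methods' t-test gave 1 before and 0 after adjustment, and the background was 2.39% higher and 2.2% lower. Of all calls in that comparison 52% were higher, and 64.8% after quantile normalization. The median over all tested probes was 0.09, -0.01, 0.0034, -0.07 and -0.07 in these 5 comparisons.

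The order of the conditions thus differed from gene to gene. Stmn1 ran from siControl day 0 over siBach1 day 0 and siControl day 2 to siBach1 day 2, and only the last pair overlapped. Stmn2 (A_66_P139166) ran from siBach1 day 0 over siBach1 day 2 and siControl day 0 to siControl day 2, and only the last step was without overlap. Stmn3 ran from siBach1 day 2 over siControl day 2 and siControl day 0 to siBach1 day 0, with every pair of neighbours overlapping. Stmn4 ran from siControl day 0 over siControl day 2 and siBach1 day 2 to siBach1 day 0, and only the first step was without overlap.

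Genes that work with stathmins were followed in 6 lists, each gene on its brightest tested probe. The lists were written with earlier results of these data known. Of their 106 genes 99 were tested. Over all tested probes, 24.6% were higher and 28.7% lower with differentiation in siControl cells, and 23.8% and 32.3% in siBach1 cells. With silencing, 8.8% were higher and 8.32% lower at day 0, and 5.75% and 6.26% at day 2. Of the 99 genes, 8 were higher and 15 lower with silencing at day 0, and 6 and 13 at day 2. The counts of each list, and of the cell type markers further below, are to be read beside these shares. The proliferation list holds cell cycle genes and their regulators. All 14 of its genes fell with differentiation in siControl cells and 14 in siBach1 cells, with medians of -2.08 and -2.01. Mybl2, a transcription factor of cycling cells, fell most in both (-3.51 and -2.59, adjusted p = 2.5e-06 and 1.8e-05), and Cdc20, an activator of the anaphase complex, fell by 2.26 and 2.5. At day 0, 4 of the 14 were lower in siBach1 cells and 0 higher, among them Mybl2 at -1.17 (adjusted p = 0.015), Foxm1, a factor for mitotic genes, at -0.90 (adjusted p = 0.008) and the cyclin gene Ccna2 at -0.76 (adjusted p = 0.017). At day 2 only Ccna2 was lower, at -0.66 (adjusted p = 0.041), and 4 genes were lower with the replicate block. The list's medians with silencing were -0.23 at day 0 and -0.40 at day 2.

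The partner of stathmins, tubulin, was measured through 17 of 19 genes. With differentiation 3 were higher and 8 lower in siControl cells, and 4 and 8 in siBach1 cells. With the replicate block 6 were higher in siControl cells. Tubb6, a beta-tubulin of muscle and other tissues, rose by 1.06 and 2.05, and Tuba1c fell by 1.76 and 1.33, while Tube1, the centriolar epsilon-tubulin, fell by 1.72 and 1.66. With silencing at day 0, 3 tubulin genes were lower and 0 higher: Tubb6 at -1.57 (adjusted p = 2.5e-05), Tubb3, the beta-tubulin typical of neurons, at -1.17 (adjusted p = 0.0036), and Tuba1c at -0.83 (adjusted p = 0.0057). At day 2, Tubb6 at -0.59 (adjusted p = 0.011) and Tubb2b at -0.30 (adjusted p = 0.017) were lower, and Tubd1, the delta-tubulin, was higher at 0.47 (adjusted p = 0.012). With the replicate block 5 were lower at day 0 and 6 at day 2.

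In the list of microtubule destabilising and severing genes, 9 of 13 fell with differentiation in each of siControl and siBach1 cells and 0 rose, with medians of -0.53 and -0.66. The largest falls were those of the mitotic kinesins Kif2c (-2.33 and -2.53), Kif18b (-2.25 and -2.18) and Kif18a (-2.07 and -1.99). With silencing the severing enzyme gene Spast was higher at both days (0.56 and 0.45, adjusted p = 0.0025 and 0.013). Mcrs1, listed here although it is the gene of a spindle protein and not of a severing enzyme or kinesin, was lower at day 2 (-0.49, adjusted p = 0.012). The remaining 12 and 11 of the 13 were not called.

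Of the genes that stabilise microtubules or sit on their growing ends, 11 of 21 rose and 5 fell with differentiation in siControl cells, and 15 rose and 4 fell in siBach1 cells. Mapt, the gene of tau, rose by 4.16 and 4.46, and Dclk1, a doublecortin-like kinase, by 3.67 and 3.15. Tpx2, a spindle assembly factor, fell by 2.26 and 2.31. With silencing at day 0, Mapre2, an end-binding protein, was lower at -1.59 (adjusted p = 8.6e-05), as were Map1b at -1.23 (adjusted p = 8.6e-05) and Dst at -0.62 (adjusted p = 0.017), with 4 lower and 2 higher in all. At day 2, Map1b was lower at -0.70 (adjusted p = 0.0041), and Clip1 and Map1a were higher at 0.66 and 0.61 (adjusted p = 0.00056 and 0.029).

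Tubulin folding and modification genes split in both directions. Of 20, 8 rose and 5 fell with differentiation in siControl cells, where 24.6% of all tested probes rose and 28.7% fell. In siBach1 cells 6 rose and 8 fell, against 23.8% and 32.3%. Svbp, the partner of the tubulin-detyrosinating vasohibins, rose by 1.62 and 1.19, and the ligase-family gene Ttll4 fell by 1.41 and 1.60. Silencing lowered Atat1, the alpha-tubulin acetyltransferase gene, by 1.19 at day 0 and 0.67 at day 2 (adjusted p = 0.00012 and 0.0059), and raised Vash2 by 0.73 and 0.71 (adjusted p = 0.00082 and 0.002). In all, 3 were higher and 2 lower at day 0, and 2 higher and 5 lower at day 2.

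Of the kinases and phosphatases that act on stathmins, 14 of 16 were tested. With differentiation 5 genes fell and 4 rose in siControl cells, and 7 fell and 4 rose in siBach1 cells. Aurkb and Cdk1, mitotic kinases that phosphorylate Stmn1, were among those that fell, with differences of -2.51 and -2.14 in siControl and -2.34 and -2.16 in siBach1 cells. Mapk8, a stress kinase gene, rose by 1.12 and 0.96, and Prkaca, the catalytic subunit gene of protein kinase A, by 0.92 and 0.64. With silencing, Uhmk1, a kinase gene whose product binds stathmin, was higher at day 0 at 0.52 (adjusted p = 0.023), and the phosphatase gene Ppp2ca was lower at day 2 at -0.49 (adjusted p = 0.0077). At day 0, 2 of the 14 were higher and 2 lower, and at day 2, 0 were higher and 3 lower.

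**Figure D3:**
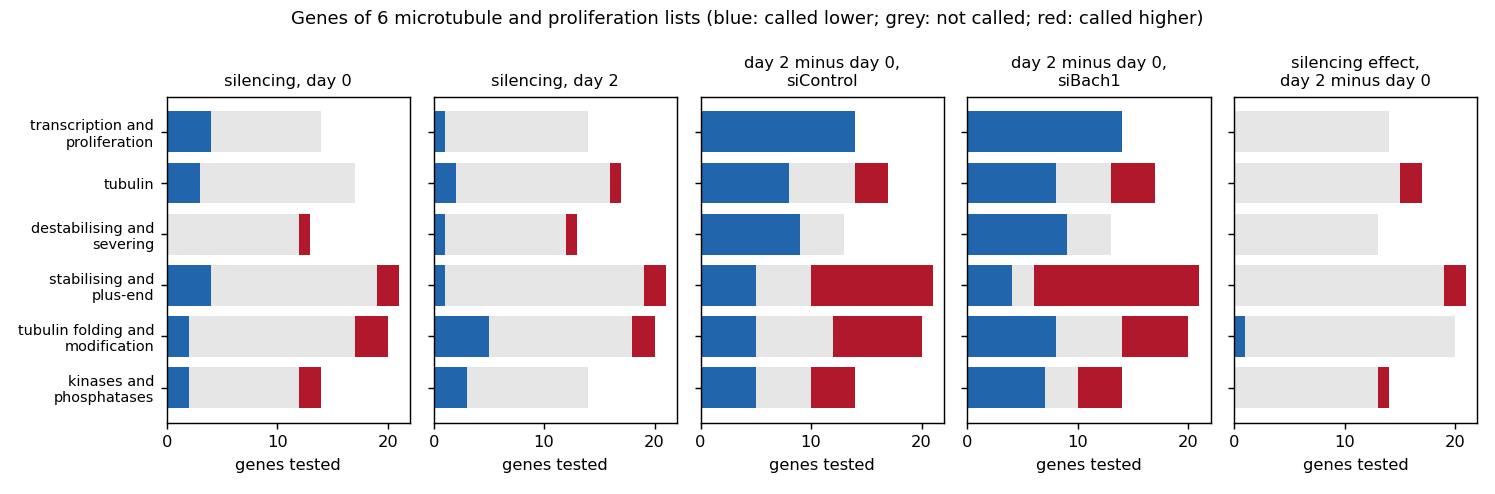
Numbers of genes called lower (blue), not called (grey) and called higher (red) in 6 lists of genes around microtubules and proliferation, on 1 probe per gene, in the 5 comparisons. The proliferation list is lower throughout with differentiation (14 of 14 in siControl and in siBach1 cells), and in the stabilising list 11 and 15 of 21 genes were higher. Over all tested probes 28.7% and 32.3% were lower with differentiation in siControl and siBach1 cells, and 24.6% and 23.8% higher.

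The genes whose levels ran most like a member over the 12 arrays were found by Pearson r among 13556 genes. The arrays fall into 4 conditions and share their slides and replicate numbers, so these values describe likeness across conditions and carry no test. For Stmn4 they were Nxpe3 (r = 0.986), Mettl9 (0.981), Fam98a (0.981), Ahctf1 (0.979) and Ccdc24 (0.97). Their differences with silencing at day 0 were -1.65, -1.23, -0.90, -1.91 and -1.28, against -2.67 for Stmn4, and each was lower on the siBach1 day 0 arrays in the way that chose Stmn4. For Stmn1 (A_51_P495641) they were Arhgef39 (r = 0.998), Cdc25c (0.997), Depdc1b (0.996), Tra2b (0.994) and Nusap1 (0.994). Cdc25c is a phosphatase gene of entry into mitosis and Nusap1 that of a spindle protein. For Stmn2 (A_66_P139166), a member added to this search after its values were seen, the closest was Grb14, an adaptor of receptor signalling (r = 0.955), followed by Mctp2 (0.942). By Spearman's rho the 5 genes closest to Stmn4 were different genes, with 0 shared. For Stmn1 more than 5 genes tied at a rho of 1, Arhgef39 and Cdc25c among them, so that no 5 closest can be named.

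**Figure D4:**
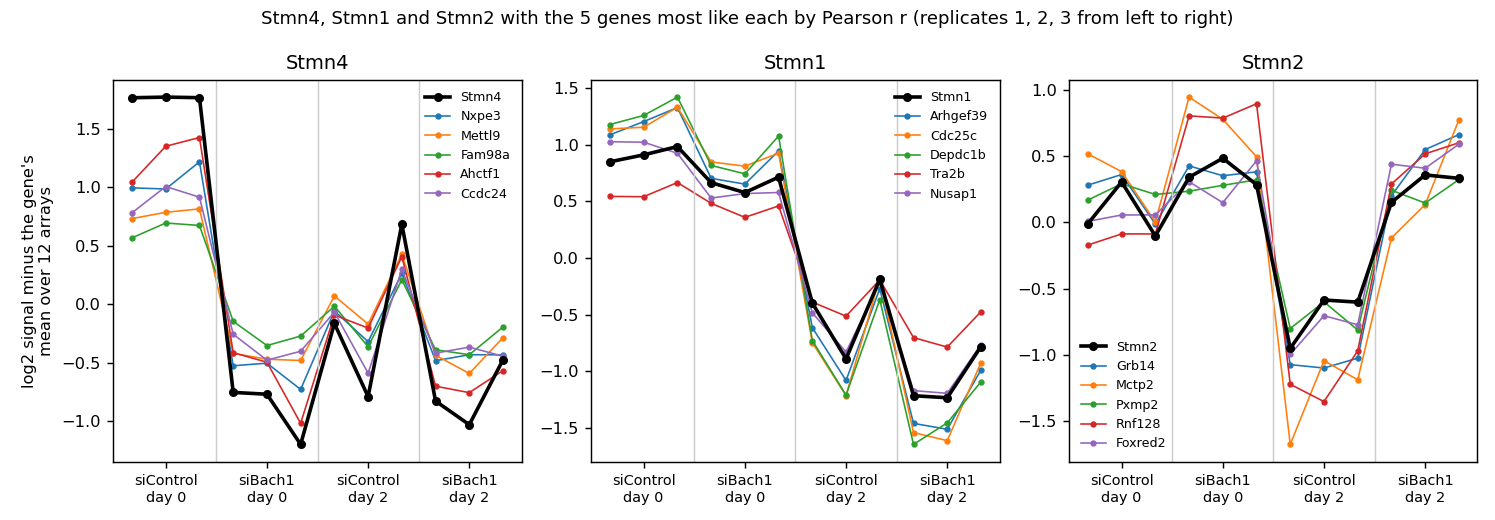
Log2 signal minus each gene's own mean over the 12 arrays for Stmn4, Stmn1 and Stmn2 (black) and the 5 genes most like each by Pearson r (colours), with arrays in the order of the 4 conditions and replicates 1, 2 and 3 from left to right. The Stmn4 genes are highest in siControl day 0 and next highest on siControl day 2 replicate 3. The Stmn1 genes step down from day 0 to day 2, and the Stmn2 genes are low only in siControl day 2.

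Markers of other cell types were read beside these results. Of 15 neuron markers 9 passed the background rule on every array, while Nefh, a neurofilament gene, and Rbfox3, a nuclear marker of mature neurons, were among those that passed it on no array. Their summed level, in units of the array's 75th percentile, was 105.9 to 120 in siControl day 0, 59.17 to 68.28 in siBach1 day 0, 37.34 to 45.38 in siControl day 2 and 34.45 to 42.25 in siBach1 day 2. In siControl day 0, where Stmn4 was also highest, the probes of the neurofilament genes Nefl and Nefm made up 51.7 and 23.8 of the sum. As parts of a sum of probe signals, these values are not relative amounts of RNA. With differentiation in siControl cells, 3 of the 9 tested fell (Nefl at -3.25, Nefm at -4.12 and Tubb3 at -0.98) and 3 rose (Map2 by 0.82, Snap25 by 0.92 and Ina by 0.89). Of the 9 tested, 3 were lower with silencing at day 0 (Tubb3, which the tubulin list also holds, Gap43 at -1.04 and Nefl at -0.99, adjusted p = 0.027 and 0.026 for the latter), 1 was lower at day 2 (Gap43 at -1.07, adjusted p = 0.032) and 0 were higher. Their part in the stathmin values was not tested. Rest, the repressor of neuronal genes and of Stmn2 in other tissues, had 3 probes tested. With silencing they differed by 0.33, 0.21 and 0.29 at day 0 (adjusted p = 0.064, 0.10 and 0.038) and by 0.09, 0.02 and 0.05 at day 2 (adjusted p = 0.65, 0.90 and 0.75). With differentiation they rose in siControl cells, where Stmn2 fell, by 0.45, 0.31 and 0.44 (adjusted p = 0.0051, 0.0068 and 0.0012), and in siBach1 cells the differences were 0.21, 0.13 and 0.20 (adjusted p = 0.12, 0.21 and 0.063). Their part in the Stmn2 values was not tested.

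Of 8 muscle markers 7 passed the background rule on every array, as the labelled cell type would have, and their summed level was 69.6 to 89.09 at day 0, 1265 to 1323 in siControl day 2 and 797.6 to 947.6 in siBach1 day 2. Of 7 tested, 0 were called with silencing at day 0 and 3 were lower at day 2. The summed level of 5 fibroblast markers, of which Thy1 was well above background on no array, was 137.4 to 140.6 in siControl day 0, 155.5 to 182.6 in siBach1 day 0, 299.6 to 350.5 in siControl day 2 and 325.6 to 334.3 in siBach1 day 2. Most of this sum was the signal of the Col1a2 probe, at a log2 level of 7.01 in siControl day 0, against 3.07 for the Col1a1 probe. Such shares of probe signals are not relative amounts of RNA either. Of 4 tested, 1 was called with silencing at day 0, Col1a2 at 0.29 (adjusted p = 0.049). Col1a1, Dcn and Pdgfra were not called at day 0, at -0.04, -0.69 and -0.14, and the median was -0.09. With silencing at day 2, Pdgfra was called higher, at 0.51 (adjusted p = 0.028). Col1a1, Col1a2 and Dcn were not called there, at 0.33, 0.10 and -0.45, and the median was 0.21. The muscle and fibroblast lists both rose with differentiation in siControl cells, where Stmn1 and Stmn2 fell. The part of these lists in those differences was not tested. A probe for Stmnd1, a gene with a stathmin-like name that is not a member here, stood apart from the family: it was higher with silencing at both days (1.5 and 0.96, adjusted p = 7e-05 and 0.002) and rose with differentiation by 2.05 and 1.5.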

How the data were processed

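The 12 samples are C2C12 RNA, carrying the dye Cy3, on 1-colour Agilent arrays. The authors deposited the scanner's output, whose background-subtracted processed signal is an intensity, with median signals and flags (a deposited score of 0 or 1 for being well above background), and a table of normalized log2 values that the authors centred on the array's 75th percentile and the probe's median. Values computed here, centred in the same way, lay within 0.01 of that table on all arrays for 99.92% of 56605 probes. The table's probe and gene names were used. The submitters' processing notes name Agilent Feature Extraction. The files name an older mouse build than the reference tables, so no coordinates are given, and no sequence of these probes or genes was used here.

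Control and outlier spots were left out, spots of a probe were averaged on the log2 scale, and the 75th percentile was subtracted. Tests came from 1 limma 3.58.1 fit (R 4.3.3) of the 4 conditions without a block over 29664 probes, with Benjamini-Hochberg adjustment over all of them, and called at an adjusted p under 0.05. The script was tested on simulated data. Files were read with Python 3.11.15 and pandas 2.3.3. Deviations from the condition means correlated in all 18 same-numbered pairs (0.142 to 0.595, above the limit of 0.1), so the numbers pair the samples and blocked values stand beside results they change. Samples of the same number always share a slide, and slide 2 holds replicate 3 only. Number and slide therefore differ only within slide 1, which holds replicates 1 and 2, and they were fitted as separate blocks.

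The members and lists were chosen with earlier results of these data known. Named are all member probes, up to 3 rises and 3 falls called per list and comparison on the probe of highest mean signal, Bach1, Hmox1 and Myog, and the 5 genes with the highest Pearson r to Stmn4 and Stmn1. Not every gene that this rule allows is named, and a few items are not reported here. Neuron markers, Rest, Stmnd1 and the genes like Stmn2 are named beside it. Alternatives were quantile normalization, normexp (offset 50, on the median signal, since no mean signal was used here), the authors' values, other filters, a block for the replicate number or for the slide, the comparison's own arrays, a trended robust prior, the methods' t-test, a fold change of at least 2, the probe with the smallest spread, each array left out, and, chosen after seeing the data, slide 1 only.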

Additional observations from a re-analysis of the deposited data

Results flagged for a closer look

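The silencing effect differed between the 2 days for a few genes around the family, in each case by limma's test of the difference itself except for Stmn4, whose day 0 values chose it, so that its difference of 1.99 was not tested. On the log2 scale, the effect at day 2 minus that at day 0 was 1.20 for Mapre2, 1.05 for Map1a, 0.98 for Tubb6 and 0.61 for Tubd1, and -0.52 for Ttll1. Mapre2 and Tubb6 were lower in siBach1 cells at day 0, and Tubb6 less so at day 2, while Map1a and Tubd1 were higher at day 2.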

How the results depend on the processing

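No called member difference changed sign under the alternatives. The falls of Stmn1 with differentiation were called in each. That of Stmn2 (A_66_P139166) in siControl cells, 1.71-fold, missed only the fold change of at least 2. The rise of Stmn2 (A_66_P139166) at day 2 was missed in the methods' t-test after Benjamini-Hochberg adjustment (0.99, adjusted p = 0.05). At 1.99-fold it also missed the fold change of at least 2. Stmn1 (A_51_P495641) at day 2, at -0.59, passed with the filter on all 12 arrays, with the replicate block, with the slide as a block and with the trended prior (adjusted p from limma = 0.044, 0.017, 0.015 and 0.03). Its day 0 difference, -0.26, passed only in the methods' test before adjustment. For Stmn2 the difference between silencing effects passed under quantile normalization (0.90), normexp (0.75), and, at 0.69, with the replicate block, the slide block, the trended prior and the unadjusted t-test. The Stmn3 differences between days, which the filter favours and which are not counted as calls, crossed the threshold in siControl cells under normexp (0.27) and fell short of it in siBach1 cells under quantile normalization (0.37), normexp (0.077) and, at 0.60, without a filter, on its 6 arrays alone, with the trended prior and in both t-tests. With single arrays left out, Stmn1 at day 2 ran from -0.78 to -0.43, Stmn4 at day 2 from -1.04 to -0.30, and Stmn3 in siBach1 cells from 0.45 to 0.76. The replicate block changed no call of a member other than those of Stmn1 (A_51_P495641) at day 2 and of both Stmn2 probes, the dim one without a test in the report, in the difference between effects. The cause was not tested for any of these.

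Counting the dim probes throughout, member probes called with silencing at day 2 numbered 1 without a filter and 1 to 4 with arrays left out. They numbered 1 with a fold change of at least 2, the dim Stmn2 probe, and 0 in the methods' t-test after adjustment. In the difference between effects they numbered 1 under quantile normalization, 1 under normexp, 2 with the replicate block and 0 to 1 with arrays left out. Over the 6 lists, the counts higher and lower in that difference were 9 and 1 under quantile normalization, 8 and 2 under normexp, 0 and 0 without a filter, 8 and 8 with the replicate block, 2 and 0 with the fold limit, 3 and 2 on the probe with the smallest spread, and 3 to 5 and 0 to 3 with arrays left out. With silencing at day 0, 2 were higher without a filter, 13 with the replicate block and 4 to 8 with arrays left out, and the fold limit left 0 higher and 7 lower. At day 2, 8 were lower under quantile normalization and 21 with the replicate block, 2 were higher and 2 lower without a filter, the fold limit left 0 and 0, and arrays left out gave 3 to 7 higher and 5 to 22 lower, the last without siControl day 2 replicate 2. With differentiation the fold limit left 10 higher and 25 lower in siControl cells, and 9 and 27 in siBach1 cells.

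Over all probes, calls fell without a filter to 2480 at day 0, 1305 at day 2 and 49 in the difference, from 5079, 3563 and 1361, and rose with the replicate block to 8165, 6331 and 3865. The fold limit left 828, 645 and 427 of these, and 5922 and 6086 with differentiation. With arrays left out the difference gave as few as 479. The dim probes of Stmn2 and Stmn3 lie near the scanner's background, which limits their differences.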
